A study of Mus musculus with 12 samples.

Results

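The Polycomb and DNA methylation machinery was followed through 43 named genes, all of them found on 1 gene identifier each among the 54532 genes of every count table. They were chosen by name from the known subunits of Polycomb repressive complexes 2 and 1 (PRC2 and PRC1), the H3K27 demethylases, the Asxl genes, *Nsd1*, the DNA methyltransferases (Dnmt) and the Tet dioxygenases, by a rule that uses no measured value, with earlier results of these data known. RNAseq was analysed from 12 samples of mouse brainstem progenitors, 3 in each of 4 groups. All 12 samples came from C57BL/6 mice of the genotype Nestin TVA; p53 floxed, isolated at P3-P5 (postnatal day 3 in the methods of the study) and grown as neurospheres without serum in EGF and FGF2. RCAS viruses, which enter only cells with the Tv-a receptor, delivered *ACVR1*, either WT or R206H, and each form was given alone or together with H3.1K27M. ACVR1 is a BMP type I receptor, R206H is an activating change in it, and H3.1K27M is histone H3.1 with methionine in place of lysine 27.

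The groups have limits as models. Tv-a is driven by the nestin promoter, so only nestin-expressing cells could be infected, and the labels give no share of infected cells. No Cre virus is listed for these samples, so the floxed p53 alleles are not described as deleted. The groups without H3.1K27M are not listed with a wild-type H3.1 virus, so that an effect of H3.1K27M and an effect of a further virus cannot be told apart. The labels number the replicates without saying whether they are separate cultures or litters. The methods of the study describe the n of its figures as lines from separate litters, without naming the RNAseq samples, and p values measure only the spread between these samples. In bulk samples, fewer cells of a type and less RNA per cell cannot be told apart.

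As background, PRC2 places methyl groups on lysine 27 of histone H3. Its catalytic subunit is EZH2 or EZH1, held by EED and SUZ12, and accessory subunits such as JARID2, AEBP2, MTF2, PHF1 and PHF19 help it to reach chromatin. PRC1 ubiquitinates histone H2A through RING1 or RNF2 with a PCGF partner. Its canonical forms read H3K27me3 through a CBX protein, and its variant forms carry RYBP or YAF2 instead. K27M histones are known to lower H3K27me3 through most of the genome, and they are a hallmark of diffuse midline gliomas of the brainstem. DNMT1 copies DNA methylation after replication, DNMT3A and DNMT3B set it anew, and the TET enzymes oxidise 5-methylcytosine.

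The samples held between 19315020 and 26456257 counts (median 20994196). All 43 members passed the filter on low counts in each comparison, and the lowest count of any member in any sample was 52, in *Asxl3*. Values below are CPM, counts per 1000000 counts of the library after TMM scaling over the 12 samples, and a level compared between genes is CPM per kb of exons. *Acvr1* itself, which checks the labels, ran from 46.1 to 53.1 CPM with *ACVR1* WT, from 82.3 to 114 with *ACVR1* R206H, from 163 to 368 with *ACVR1* WT and H3.1K27M, and from 548 to 1056 with *ACVR1* R206H and H3.1K27M. Reads of the viral *ACVR1* that align to the mouse gene cannot be told apart from its own, and the level of the receptor differed between the groups compared. *Hist1h3b*, a clustered histone H3 gene looked at after its values were seen, was at 0 to 0.194 CPM in the 6 samples without H3.1K27M. It was at 5.64 to 34.8 CPM in the 6 with it. Reads of the viral H3.1K27M that align to *Hist1h3b* cannot be told apart from its own. Neural progenitor markers summed to 4094 to 5880 CPM over the 12 samples, with none of the 7 genes under 1 CPM, while endothelial markers summed to 1.12 to 5.49 CPM.

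*ACVR1* WT replicate 1 stood apart from the other samples of its group. Its counts differed from those of replicates 2 and 3 by a chi-square per degree of freedom of 75.3 and 129, against 17.0 between replicates 2 and 3 and at most 7.07 in the other groups. The biological coefficient of variation of *ACVR1* WT was 0.275, and 0.120 without replicate 1, against 0.0594, 0.0505 and 0.0453 in the other groups. Replicate 1 was not the sample farthest from the other groups. Its log2 CPM correlated with replicate 1 of *ACVR1* WT and H3.1K27M at 0.976, against 0.957 and 0.945 for *ACVR1* WT replicates 2 and 3. With *ACVR1* R206H replicate 1 these correlations were 0.994, 0.986 and 0.974. The summed level of 24 proliferation genes was 3611, 1091 and 575 CPM in *ACVR1* WT replicates 1, 2 and 3. It was 2083 to 2574 with *ACVR1* R206H, 2176 to 2269 with *ACVR1* WT and H3.1K27M, and 1708 to 1825 with *ACVR1* R206H and H3.1K27M. Astrocyte markers went the other way in *ACVR1* WT, at 3191, 8222 and 12671 CPM. For comparisons that use *ACVR1* WT alone, the counts of members are therefore given without replicate 1 too, as are the members whose call for H3.1K27M or R206H turned. That fit is no correction, since it leaves replicates 2 and 3, whose proliferation sums lay below those of all other samples. Which of the 3 samples is typical of *ACVR1* WT was not tested.

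Among the members, *Rbbp7* and *Rbbp4*, which encode histone-binding proteins shared with other chromatin complexes, *Yaf2* and *Bmi1* had the highest levels per length, at means over the 4 groups of 58.9, 36.3, 36.7 and 36.3 CPM per kb. *Asxl3* and *Dnmt3b* had the lowest, at 0.353 and 0.646 CPM per kb. Of the catalytic subunits of PRC2, *Ezh2* had 12.4 and *Ezh1* 2.83 CPM per kb. Of the methyltransferases of DNA, *Dnmt1* had 23.0 and *Dnmt3a* 10.05 CPM per kb.

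**Figure D1:**
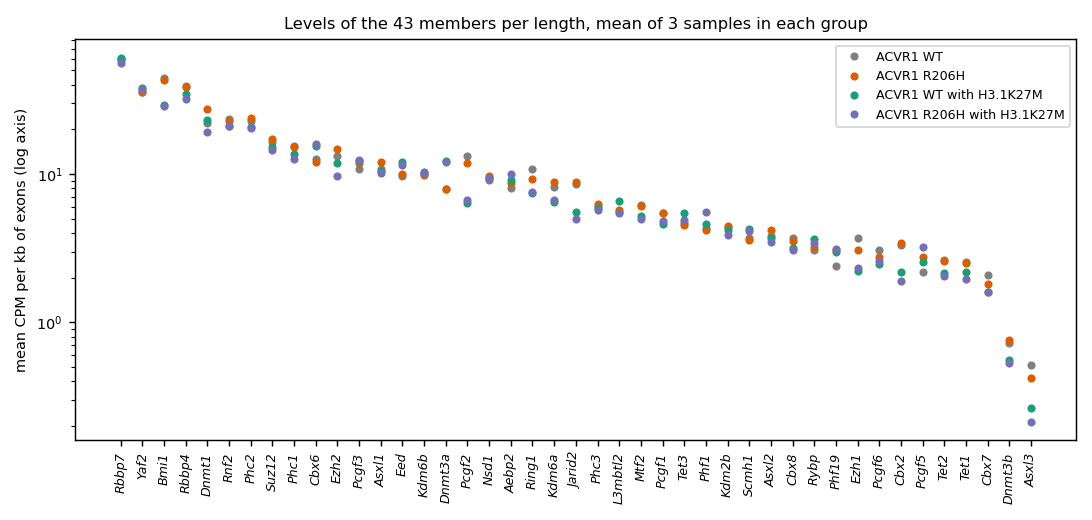
Mean CPM per kb of exons of each of the 43 members (log axis), ordered by the mean of the 4 groups, with 1 point per group and 3 samples behind each point. *Rbbp7* stands at the top with 58.9 and *Asxl3* at the bottom with 0.353, and the points of *Bmi1*, *Pcgf2* and *Jarid2* with H3.1K27M lie apart from those without it.

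H3.1K27M was accompanied by lower levels of the PRC2 accessory gene *Jarid2* and of the PCGF genes *Bmi1* and *Pcgf2*, and by higher levels of *Dnmt3a* and the CBX gene *Cbx6*, whether the receptor was WT or R206H. With *ACVR1* R206H, 28 of the 43 members passed the test (65.1%), 7 higher and 21 lower, where 56.5% of the 15482 genes tested did. Of the members 48.8% fell, where 27.4% of all genes did, and 16.3% rose, where 29.1% did. With *ACVR1* WT, 9 of the 43 passed (20.9%), 2 higher and 7 lower, where 23% of the 15385 genes tested did, 12.6% of them higher and 10.4% lower. With both directions together, the count of members is near the background in both comparisons. The median log2 fold change of the 43 members was -0.18 with *ACVR1* R206H and -0.11 with *ACVR1* WT, against -0.002 and -0.02 over all genes tested. Without *ACVR1* WT replicate 1 the median with *ACVR1* WT was -0.0074 and 12 members were higher and 13 lower (26.9% and 25.6% of all genes), so that the excess of lower calls with *ACVR1* WT turned on that library.

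These comparisons share no sample. All 9 members that passed with *ACVR1* WT (*Ezh1*, *Jarid2*, *Pcgf2*, *Ring1*, *Bmi1*, *Kdm6a*, *Asxl3*, *Dnmt3a* and *Cbx6*) passed in the same direction among the 28 with *ACVR1* R206H. Of all genes that passed with *ACVR1* WT and were tested in both, 3288 of 3471 (94.7%) did so, or 21.7% of the genes tested in both. The 9 calls with *ACVR1* WT moved with the samples left out. There were 25 without *ACVR1* WT replicate 1 (52.6% of all genes), the 9 and 16 more, and 4 without *ACVR1* WT replicate 2 or without any 1 of the 3 samples with *ACVR1* WT and H3.1K27M. *Jarid2*, *Bmi1*, *Pcgf2* and *Dnmt3a* passed with every single sample left out. With 1 estimate of the spread from all 12 samples, 16 members passed with *ACVR1* R206H and 15 with *ACVR1* WT. *Ezh2*, *Dnmt1*, *Suz12*, *Ring1*, *Pcgf5*, *Eed*, *Scmh1*, *Phc2*, *Kdm2b*, *Asxl2*, *Dnmt3b* and *Tet2* were then no longer past the threshold with *ACVR1* R206H.

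**Figure D2:**
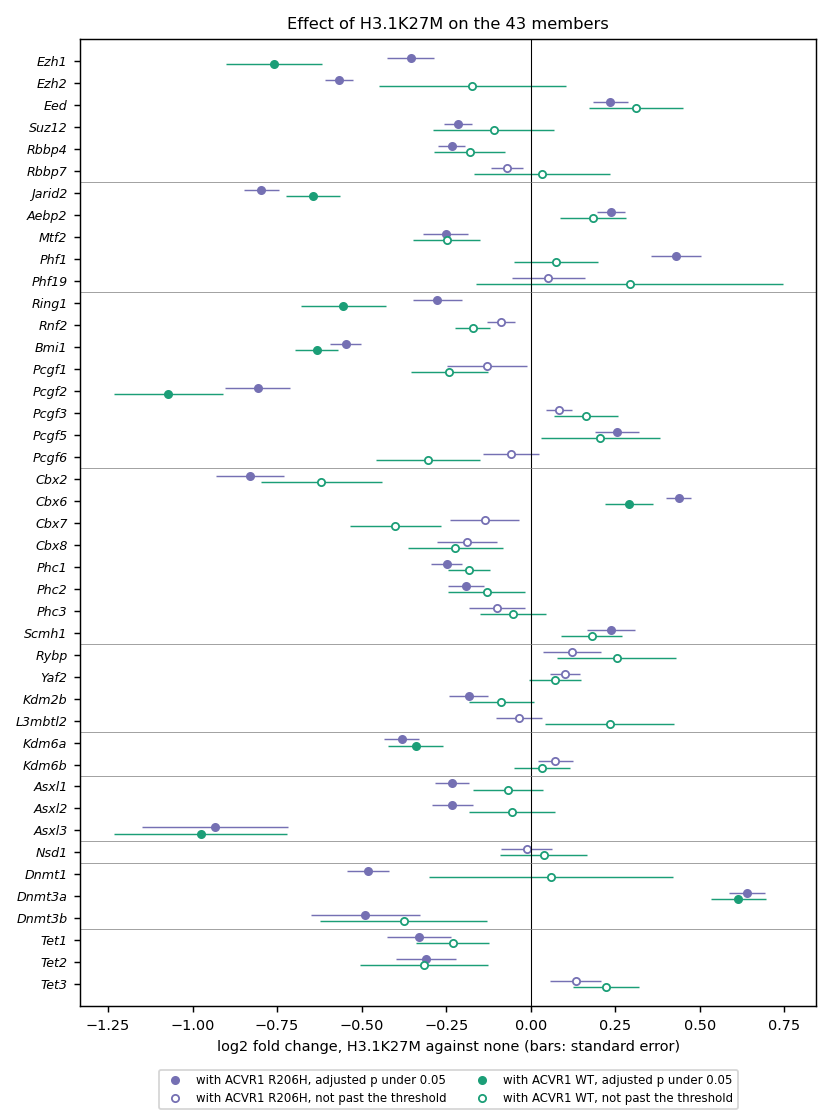
Log2 fold change of each of the 43 members with H3.1K27M against none, grouped by role, with *ACVR1* R206H (purple) and *ACVR1* WT (green), bars giving the standard error and filled points an adjusted p under 0.05. *Jarid2*, *Bmi1*, *Pcgf2*, *Cbx2* and *Asxl3* lie left of -0.5 and *Dnmt3a* farthest to the right in both, while the bars of *Ezh2*, *Dnmt1* and *Phf19* are wide with *ACVR1* WT.

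Among the accessory subunits of PRC2, *Jarid2*, a subunit without demethylase activity that helps to recruit the complex, had the smallest adjusted p of all members. It lies at chr13:44729474-44921643 (mm10, plus strand). *Jarid2* had 82.5, 91.1 and 82.8 CPM in the 3 *ACVR1* R206H samples and 49.4, 48.0 and 47.2 CPM with *ACVR1* R206H and H3.1K27M. It had 79.0, 89.6 and 81.6 CPM with *ACVR1* WT and 55.3, 55.8 and 50.2 CPM with *ACVR1* WT and H3.1K27M. All 6 samples with H3.1K27M lay below all 6 without it. For *Jarid2* the log2 fold change was -0.80 with *ACVR1* R206H (standard error, SE, 0.05; edgeR adjusted p = 1.2e-07, by the quasi-likelihood method adjusted over all genes tested) and -0.64 with *ACVR1* WT (SE 0.08, adjusted p = 0.0041).

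The other accessory subunits did not move as one. *Aebp2*, at chr6:140622663-140678472 on the plus strand, encodes a DNA-binding partner often found with JARID2. It had 88.3, 84.1 and 84.6 CPM with *ACVR1* R206H, against 99.0, 96.0 and 101.7 CPM once H3.1K27M was added, so that these groups did not overlap. The log2 fold change was 0.24 (SE 0.04, edgeR adjusted p = 0.00046). With *ACVR1* WT it had 89.0, 73.6 and 73.9 CPM, and once H3.1K27M was added 86.1, 88.2 and 96.4 CPM, which overlapped (log2 fold change 0.18, edgeR adjusted p = 0.22). Leaving out *ACVR1* WT replicate 1, *Aebp2* passed there at 0.28 (edgeR adjusted p = 0.0074). *Phf1*, at chr17:26933052-26937908 on the plus strand, encodes a Tudor domain protein that binds H3K36me3. *Phf1* rose from 13.98, 14.5 and 15.5 CPM with *ACVR1* R206H to 18.9, 18.6 and 20.5 CPM with H3.1K27M, a log2 fold change of 0.43 (SE 0.07, edgeR adjusted p = 0.00036). With *ACVR1* WT the values of *Phf1* were 14.02, 14.7 and 16.9 CPM, and with H3.1K27M 17.8, 14.6 and 16.0 CPM. Of the exon bases of *Phf1*, 39.3% are shared with *Cuta* on the other strand. The counting used no strand and left out reads that fit both, so the level of *Phf1* is uncertain.

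*Mtf2*, another Tudor domain subunit, fell with *ACVR1* R206H by 0.25 on the log2 scale (edgeR adjusted p = 0.0068) and had the same fold change of -0.25 with *ACVR1* WT without passing (edgeR adjusted p = 0.11). *Phf19* did not pass in either, at log2 fold changes of 0.05 and 0.29, but with *ACVR1* WT it passed once *ACVR1* WT replicate 1 was left out (log2 fold change 1.04, edgeR adjusted p = 0.00035).

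Among the core subunits of PRC2, *Ezh2*, *Ezh1*, *Suz12* and *Rbbp4* fell and *Eed* rose with H3.1K27M and *ACVR1* R206H. *Ezh2*, the catalytic subunit of dividing cells, lies at chr6:47530139-47595341 on the minus strand. It had 101, 99.1 and 96.0 CPM with *ACVR1* R206H and 66.6, 64.8 and 64.4 CPM with H3.1K27M added, a log2 fold change of -0.57 (SE 0.04, edgeR adjusted p = 3.9e-07). With *ACVR1* WT it had 132, 75.2 and 59.9 CPM, and with H3.1K27M besides 80.8, 80.7 and 77.4 CPM. The 3 *ACVR1* WT samples of *Ezh2* thus lay above and below those with H3.1K27M, in the order of their proliferation genes. Its log2 fold change with *ACVR1* WT was -0.17 (SE 0.28, edgeR adjusted p = 0.69), and 0.23 without *ACVR1* WT replicate 1. The 24 proliferation genes moved with it: 18 fell and 1 rose with H3.1K27M and *ACVR1* R206H, and their part in the change of *Ezh2* was not tested.

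*Ezh1*, the subunit that prevails in cells that do not divide, fell in both. It went from 22.1, 24.4 and 21.7 CPM with *ACVR1* R206H to 17.1, 17.0 and 18.0 CPM, and from 22.2, 29.4 and 31.1 CPM with *ACVR1* WT to 16.7, 16.8 and 15.7 CPM. The groups of *Ezh1* did not overlap in either comparison. The log2 fold changes were -0.36 (SE 0.07, edgeR adjusted p = 0.00094) and -0.76 (SE 0.14, edgeR adjusted p = 0.014). *Ezh1* did not pass with *ACVR1* WT when *ACVR1* WT replicate 2 or any 1 sample with H3.1K27M was left out.

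The log2 ratio of *Ezh2* to *Ezh1* counts within a sample does not depend on library size. It was 1.62 ± 0.844 with *ACVR1* WT, 2.12 ± 0.0866 with *ACVR1* R206H, 2.28 ± 0.0209 with *ACVR1* WT and H3.1K27M, and 1.91 ± 0.0658 with *ACVR1* R206H and H3.1K27M (SD, n = 3 each). In *ACVR1* WT the ratio was 2.57, 1.35 and 0.946 in replicates 1, 2 and 3. The groups with *ACVR1* R206H did not overlap, and the ratio was lower by 0.21 with H3.1K27M. Over 4 comparisons the two-sided exact permutation test gave p = 0.1 for H3.1K27M with *ACVR1* R206H and for R206H with H3.1K27M, and p = 0.4 for both comparisons with *ACVR1* WT alone (adjusted p = 0.2 and 0.4). For these last, the difference over all samples was 0.50 for R206H and 0.66 for H3.1K27M. With 1 sample left out it ranged from 0.16 to 0.97 for R206H and from 0.32 to 1.13 for H3.1K27M. The upper ends are those without *ACVR1* WT replicate 1. For 3 samples against 3 the smallest p this test can give is 0.1.

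*Rbbp4*, at chr4:129307100-129335370 on the minus strand, had 345, 325 and 347 CPM with *ACVR1* R206H and 287, 280 and 280 CPM with H3.1K27M, a log2 fold change of -0.23 (SE 0.04, edgeR adjusted p = 0.00044). With *ACVR1* WT its 390, 327 and 312 CPM stood against 322, 293 and 300 CPM, and the groups overlapped. *Suz12* fell by 0.21 on the log2 scale with *ACVR1* R206H (edgeR adjusted p = 0.00092) and had a log2 fold change of -0.11 with *ACVR1* WT (edgeR adjusted p = 0.69). *Eed*, the subunit that binds H3K27me3, rose from 36.8 to 39.4 CPM up to 43.9 to 44.4 CPM with *ACVR1* R206H (log2 fold change 0.23, edgeR adjusted p = 0.0023), and with *ACVR1* WT its log2 fold change was 0.31 (edgeR adjusted p = 0.15). *Rbbp7* did not pass in either comparison. With *ACVR1* WT replicate 1 left out, *Eed* (0.48, edgeR adjusted p = 0.00058) and *Rbbp7* (0.31, edgeR adjusted p = 0.0041) passed as higher under *ACVR1* WT, and *Suz12* turned to 0.13 without passing (edgeR adjusted p = 0.14).

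Among the ligases and PCGF genes of PRC1, *Bmi1*, *Pcgf2* and *Ring1* fell with both receptors. *Bmi1*, which encodes the PCGF4 partner of RING1 and RNF2 and is known for its role in the self-renewal of neural stem cells, lies at chr2:18677018-18686629 on the plus strand. *Bmi1* had 172, 177 and 161 CPM with *ACVR1* R206H and 116, 108 and 117 CPM with H3.1K27M added. It had 174, 189 and 171 CPM with *ACVR1* WT and 118, 112 and 117 CPM with *ACVR1* WT and H3.1K27M. The 6 samples with H3.1K27M lay between 108 and 118 CPM and the 6 without it between 161 and 189 CPM. The log2 fold changes were -0.55 (SE 0.05, edgeR adjusted p = 1.1e-06) and -0.63 (SE 0.06, edgeR adjusted p = 0.0024).

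*Pcgf2*, the closest relative of *Bmi1* among the PCGF genes and also known as Mel18, lies at chr11:97688823-97700497 on the minus strand. *Pcgf2* had 35.4, 45.7 and 44.1 CPM with *ACVR1* R206H and 26.2, 21.9 and 22.1 CPM with H3.1K27M. It had 35.8, 52.3 and 52.4 CPM with *ACVR1* WT and 23.2, 23.2 and 20.8 CPM with *ACVR1* WT and H3.1K27M. No sample with H3.1K27M reached the lowest sample without it. The log2 fold changes were -0.81 (SE 0.10, edgeR adjusted p = 2.1e-05) and -1.07 (SE 0.16, edgeR adjusted p = 0.0074).

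*Ring1* fell by 0.28 on the log2 scale with *ACVR1* R206H (edgeR adjusted p = 0.0069) and by 0.55 with *ACVR1* WT (edgeR adjusted p = 0.025). The latter did not pass without *ACVR1* WT replicate 2 or 3, or without any 1 of the samples with H3.1K27M. Its paralogue *Rnf2*, the main ligase of PRC1, did not pass in either, at log2 fold changes of -0.09 and -0.17. *Pcgf5*, a subunit of variant PRC1, rose with *ACVR1* R206H by a log2 fold change of 0.26 (edgeR adjusted p = 0.0056). *Pcgf1*, *Pcgf3* and *Pcgf6*, also of variant PRC1, did not pass in either, nor did *Pcgf5* with *ACVR1* WT. For *Rnf2*, *Pcgf3* and *Pcgf5* the call with *ACVR1* WT turned on 1 library, since without its replicate 1 *Rnf2* fell by 0.17 (edgeR adjusted p = 0.021), *Pcgf3* rose by 0.27 (edgeR adjusted p = 0.0035) and *Pcgf5* rose by 0.43 (edgeR adjusted p = 0.0019).

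The CBX genes of canonical PRC1 went in opposite directions. *Cbx2*, at chr11:119022962-119031270 on the plus strand, had 15.5, 13.8 and 14.5 CPM with *ACVR1* R206H and 8.56, 8.62 and 7.10 CPM with H3.1K27M, a log2 fold change of -0.83 (SE 0.10, edgeR adjusted p = 2.3e-05). It had 17.7, 13.3 and 11.7 CPM with *ACVR1* WT and 9.84, 9.70 and 8.56 CPM with *ACVR1* WT and H3.1K27M. These *Cbx2* groups did not overlap, but the log2 fold change of -0.62 (SE 0.18) did not pass edgeR's test (adjusted p = 0.051), whereas it passed under DESeq2 and without *ACVR1* WT replicate 1 (-0.43, edgeR adjusted p = 0.016). *Cbx6*, at chr15:79823896-79834688 on the minus strand, is a CBX paralogue expressed in neural cells. It had 126, 128 and 128 CPM with *ACVR1* R206H and 170, 166 and 172 CPM with H3.1K27M. It had 127, 130 and 145 CPM with *ACVR1* WT and 168, 163 and 164 CPM with *ACVR1* WT and H3.1K27M. All 6 samples of *Cbx6* with H3.1K27M lay above all 6 without it, with log2 fold changes of 0.44 (SE 0.04, edgeR adjusted p = 1.2e-06) and 0.29 (SE 0.07, edgeR adjusted p = 0.031). The call with *ACVR1* WT was lost when *ACVR1* WT replicate 2 or any 1 sample with H3.1K27M was left out.

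*Cbx7* and *Cbx8* did not pass in either comparison, but *Cbx7* fell by 0.51 under *ACVR1* WT without its replicate 1 (edgeR adjusted p = 0.0039). Of the Polyhomeotic genes, which let PRC1 cluster on chromatin, *Phc1* and *Phc2* fell with *ACVR1* R206H by 0.25 and 0.19 on the log2 scale, *Phc3* did not pass, and *Scmh1*, which binds them, rose (log2 fold change 0.24). *Kdm2b*, which brings variant PRC1 to CpG islands, fell by 0.18 with *ACVR1* R206H (edgeR adjusted p = 0.016). *Rybp*, *Yaf2* and *L3mbtl2* did not pass with H3.1K27M under either receptor. When *ACVR1* WT replicate 1 was left out, *Rybp* (0.46, edgeR adjusted p = 0.0048) and *L3mbtl2* (0.49, edgeR adjusted p = 0.00053) passed as higher and *Phc1* as lower (-0.20, edgeR adjusted p = 0.021) under *ACVR1* WT.

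**Figure D3:**
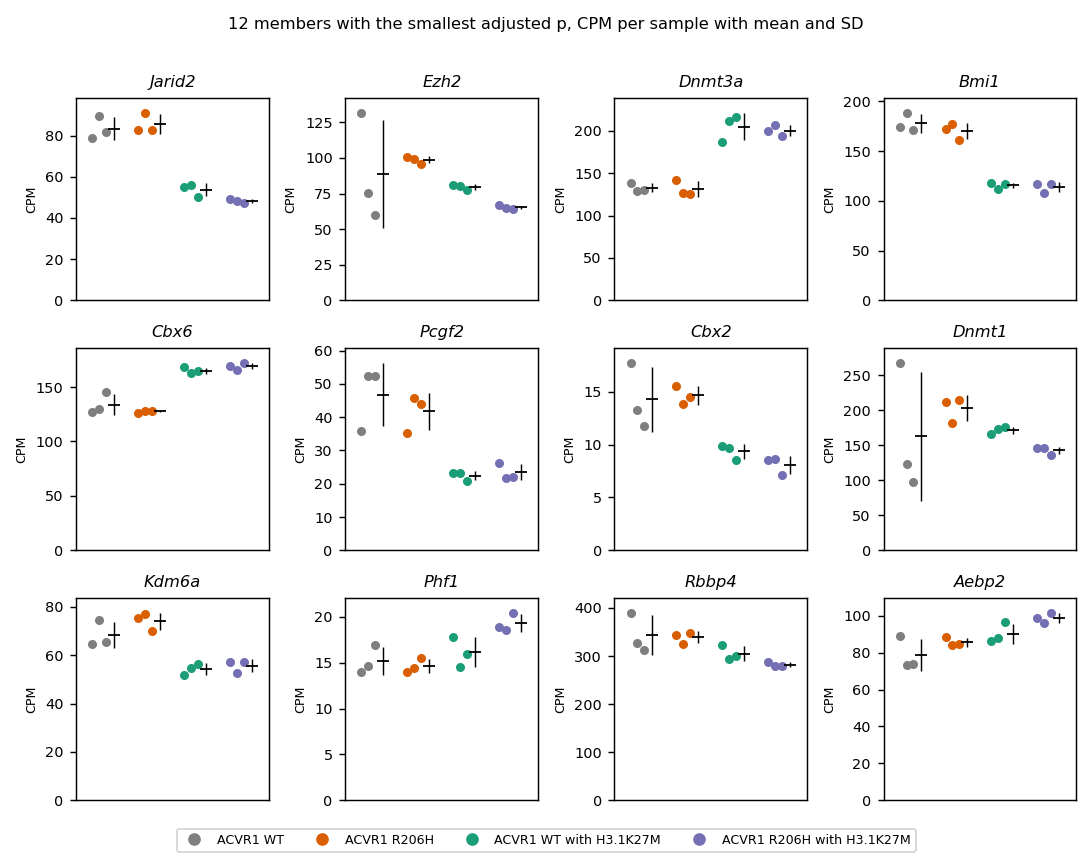
CPM of the 12 members with the smallest adjusted p in each of the 12 samples (points, coloured by group), with the mean and SD of each group beside them and each axis starting at 0. The 6 samples with H3.1K27M lie below the others for *Jarid2*, *Bmi1*, *Pcgf2*, *Cbx2* and *Kdm6a* and above them for *Dnmt3a* and *Cbx6*, while *Ezh2* and *Dnmt1* are spread most within *ACVR1* WT.

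Of the H3K27 demethylases, *Kdm6a* fell and *Kdm6b* did not pass. *Kdm6a*, also known as Utx, lies at chrX:18162575-18279936 on the plus strand and escapes X inactivation. It had 75.3, 76.9 and 70.1 CPM with *ACVR1* R206H and 57.0, 52.8 and 57.3 CPM with H3.1K27M (log2 fold change -0.38, SE 0.05, edgeR adjusted p = 4.8e-05). It had 64.7, 74.5 and 65.5 CPM with *ACVR1* WT and 51.7, 54.6 and 56.6 CPM with *ACVR1* WT and H3.1K27M (log2 fold change -0.34, SE 0.08, edgeR adjusted p = 0.029). All 6 samples with H3.1K27M lay below all 6 without it. The call with *ACVR1* WT was lost without *ACVR1* WT replicate 2 and without any 1 sample with H3.1K27M.

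*Xist* and the Y-linked *Ddx3y* were both read in all 12 samples, and the labels give no sex. *Xist* was at 682 to 875 CPM in the 6 samples without H3.1K27M and at 490 to 717 CPM in the 6 with it. *Ddx3y* was at 24.4 to 33.1 CPM without and 33.8 to 40.5 CPM with H3.1K27M, while *Uty*, the Y-linked paralogue of *Kdm6a*, was at 17.6 to 20.3 CPM without and 18.7 to 20.1 CPM with it. *Kdm5c* and *Eif2s3x*, which also escape X inactivation, had log2 fold changes of -0.19 and -0.29 with *ACVR1* R206H and of -0.03 and -0.17 with *ACVR1* WT, where neither passed (edgeR adjusted p = 0.89 and 0.14). These genes were looked at after the values were seen, and the part of a mix of male and female cells in the level of *Kdm6a* was not tested.

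The Asxl genes encode partners of the deubiquitinase BAP1, which removes the mark that PRC1 sets. *Asxl1*, *Asxl2* and *Asxl3* all fell with *ACVR1* R206H, by 0.23, 0.23 and 0.93 on the log2 scale (edgeR adjusted p = 0.002, 0.0065 and 0.003). *Asxl3* also fell with *ACVR1* WT, by 0.98 (edgeR adjusted p = 0.039), but not without *ACVR1* WT replicate 2 or 3 or any 1 sample with H3.1K27M. *Asxl3* was low, from 2.47 to 10.4 CPM. *Nsd1*, which methylates lysine 36 of histone H3, passed in none of the comparisons. *Nsd1*, at chr13:55209782-55318325 on the plus strand, had 178, 154 and 147 CPM with *ACVR1* WT and 187, 162 and 157 CPM with *ACVR1* R206H. With H3.1K27M it had 140, 174 and 182 CPM under *ACVR1* WT and 157, 179 and 155 CPM under *ACVR1* R206H. The 4 groups of *Nsd1* overlapped.

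The DNA methyltransferases went different ways. *Dnmt3a*, at chr12:3806007-3914443 on the plus strand, encodes the de novo enzyme that prevails in the postnatal brain. *Dnmt3a* had 142, 126 and 126 CPM with *ACVR1* R206H and 200.03, 206.1 and 194 CPM with H3.1K27M. It had 139, 129 and 130.4 CPM with *ACVR1* WT and 186, 212 and 216 CPM with *ACVR1* WT and H3.1K27M. The lowest of the 6 samples with H3.1K27M, at 186 CPM, lay above the highest of the 6 without it, at 142 CPM. The log2 fold changes were 0.64 (SE 0.05, edgeR adjusted p = 1.1e-06) and 0.61 (SE 0.08, edgeR adjusted p = 0.0051), the largest rise of any member in both comparisons over all samples. With *ACVR1* WT replicate 1 left out, that of *Phf19* (1.04) was larger than that of *Dnmt3a* (0.65).

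*Dnmt1*, at chr9:20907209-20959888 on the minus strand, had 212, 182 and 215 CPM with *ACVR1* R206H and 146, 146 and 136 CPM with H3.1K27M, a log2 fold change of -0.48 (SE 0.06, edgeR adjusted p = 4.2e-05). It had 268, 123 and 97.4 CPM with *ACVR1* WT and 166, 173 and 176 CPM with *ACVR1* WT and H3.1K27M. As for *Ezh2*, *ACVR1* WT replicate 1 lay above and replicates 2 and 3 below the samples with H3.1K27M. For *Dnmt1* with *ACVR1* WT the log2 fold change was 0.06 (SE 0.36, edgeR adjusted p = 0.92). Without *ACVR1* WT replicate 1 it was 0.62 and passed (edgeR adjusted p = 0.00092), and without replicate 3 it was -0.20.

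*Dnmt3b* was barely expressed, from 2.28 to 4.31 CPM, and fell by 0.49 on the log2 scale with *ACVR1* R206H (edgeR adjusted p = 0.023). That call was lost under DESeq2 and without *ACVR1* R206H replicate 1 or 2 or *ACVR1* R206H with H3.1K27M replicate 2. Of the TET genes, *Tet1* and *Tet2* fell with *ACVR1* R206H by 0.33 and 0.31 (edgeR adjusted p = 0.011 for both) and *Tet3* did not pass. None of the 3 TET genes passed with *ACVR1* WT, where their log2 fold changes were -0.23, -0.32 and 0.22. Once *ACVR1* WT replicate 1 was left out, *Tet2* (-0.47, edgeR adjusted p = 0.016), *Tet3* (0.27, edgeR adjusted p = 0.039) and *Dnmt3b* (-0.56, edgeR adjusted p = 0.047) passed there.

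Markers of other cell types moved with H3.1K27M too. Summed microglia and macrophage markers were at 3.999 to 20.5 CPM with *ACVR1* WT and 6.44 to 7.58 CPM with *ACVR1* R206H, but at 1.12 to 1.60 and 1.93 to 2.95 CPM with H3.1K27M, where 6 of the 7 genes were under 1 CPM. Of 3 tested under *ACVR1* R206H 1 rose and 2 fell, and of 5 tested under *ACVR1* WT 0 rose and 4 fell. The 1 that rose, *P2ry12*, went from 0.884 to 1.31 CPM with *ACVR1* R206H up to 1.54 to 2.50 CPM with H3.1K27M added. Of 6 neuron markers, 3 rose and 2 fell with H3.1K27M under *ACVR1* R206H, and 1 rose and 2 fell under *ACVR1* WT. Their sum is mostly *Map2*, at 1119 to 1560 CPM without and 567 to 746 CPM with H3.1K27M, while *Rbfox3* went from 0.251 to 0.680 CPM up to 1.43 to 1.89 CPM. Pericyte and fibroblast markers were at 9.32 to 15.5 CPM without and 15.9 to 31.8 CPM with it, and oligodendrocyte lineage markers at 2363 to 3270 CPM without and 3481 to 4284 CPM with it (of 8 genes 5 rose and 2 fell under *ACVR1* R206H, and 1 rose and 1 fell under *ACVR1* WT). Of 6 astrocyte markers 2 rose and 3 fell under *ACVR1* R206H, *Gfap* from 862 to 1138 CPM down to 412 to 475 CPM, and 0 rose and 1 fell under *ACVR1* WT. Of 7 neural progenitor markers 1 rose and 3 fell under *ACVR1* R206H and 0 rose and 3 fell under *ACVR1* WT, and *Sox2* was at 326 to 374 CPM without and 213 to 264 CPM with H3.1K27M. The part of these cells in the members' changes was not tested. Of the 24 proliferation genes, 0 passed edgeR's test with H3.1K27M and *ACVR1* WT (1 at an unadjusted p under 0.05, 1 by DESeq2), and without *ACVR1* WT replicate 1 all 24 were higher, with 1 astrocyte marker higher and 3 lower. Their part in the members' changes was not tested.

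**Figure D4:**
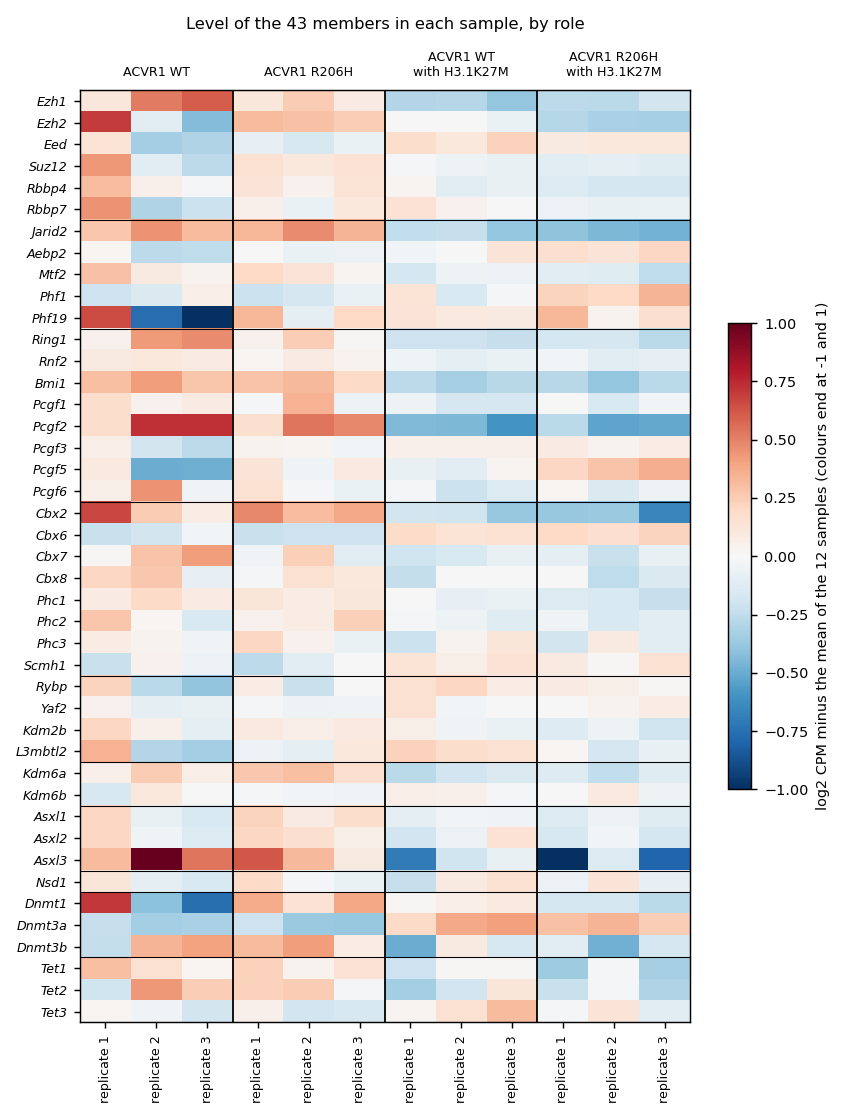
Level of each of the 43 members in each of the 12 samples, as log2 CPM minus the member's mean over the 12 samples (colours end at -1 and 1), with members grouped by role. *Jarid2*, *Bmi1*, *Pcgf2* and *Kdm6a* change colour between samples without and with H3.1K27M, while *Ezh2*, *Phf19* and *Dnmt1* differ most between the 3 *ACVR1* WT samples.

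*ACVR1* R206H on its own was compared with *ACVR1* WT to ask what the receptor mutation does without the histone. None of the 43 members passed edgeR's test, nor any of the 15066 genes tested (0%), and 0 members had an unadjusted p under 0.05. DESeq2 called 0 members and 26 genes in all. The log2 fold changes of the members ran from -0.31 for *Asxl3* to 0.35 for *Phf19*. This comparison turned on 1 library. Without *ACVR1* WT replicate 1, 13 members passed, 11 higher and 2 lower, where 23.1% of all genes did, 12.1% higher and 11% lower. Then *Dnmt1* (log2 fold change 0.88, edgeR adjusted p = 0.0034), *Phf19* (1.10, edgeR adjusted p = 0.0055), *Ezh2* (0.54, edgeR adjusted p = 0.0068), *Pcgf5*, *Suz12*, *Rbbp7*, *L3mbtl2*, *Aebp2*, *Pcgf3*, *Asxl1* and *Asxl2* were higher with *ACVR1* R206H, and *Ezh1* and *Ring1* were lower. In the same fit all 24 proliferation genes were higher (median log2 fold change 1.63), 5 of 6 astrocyte markers lower and 4 of 5 tested microglia and macrophage markers lower, and their part was not tested.

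The members differed widely in how much the 3 *ACVR1* WT samples spread. The range on the log2 scale was 1.81 for *Phf19*, 1.46 for *Dnmt1* and 1.14 for *Ezh2*, with a median of 0.35 over the 43 members and 0.42 over all genes tested. In the other 3 groups the median range of the members was 0.13 to 0.17. *Phf19*, which brings PRC2 to CpG islands, had 21.9, 8.20 and 6.21 CPM in *ACVR1* WT replicates 1, 2 and 3, against 13.0 to 17.5 CPM over the other 9 samples. *Suz12* had 105, 72.5 and 64.9 CPM in the same order. In 25 of the 43 members replicate 1 was the highest of the 3 (58.1%, against 42.3% of all 15445 genes tested).

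**Figure D5:**
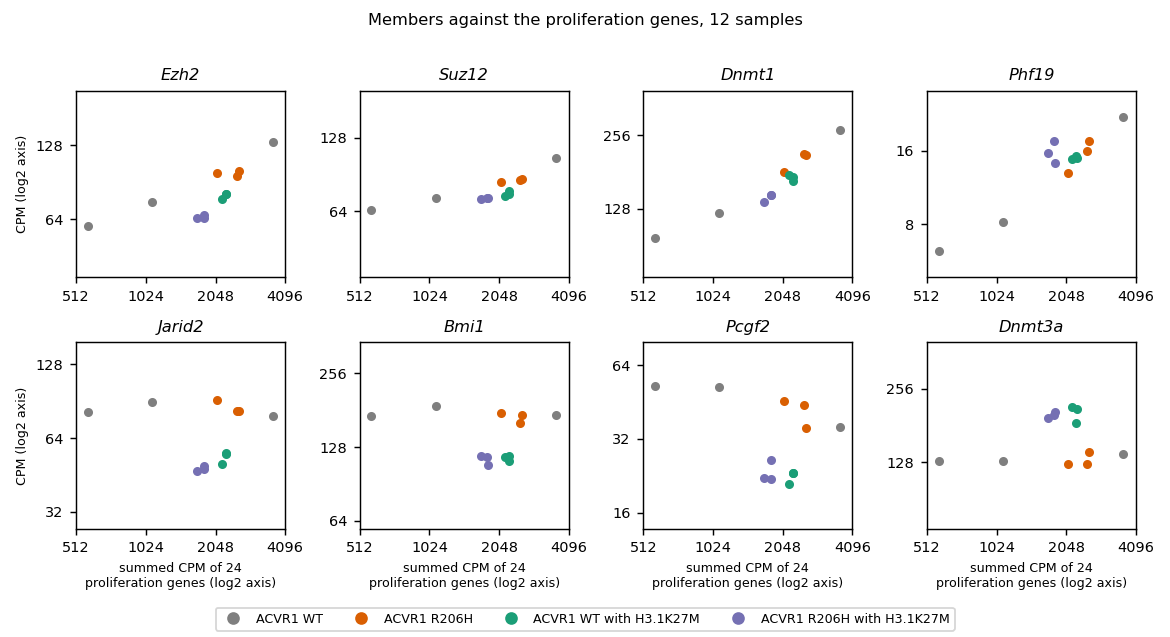
CPM of 8 members against the summed CPM of 24 proliferation genes in each of the 12 samples (log2 axes), coloured by group. The 3 *ACVR1* WT samples, whose proliferation sums run from 575 to 3611 CPM, rise with the sum for *Ezh2*, *Suz12*, *Dnmt1* and *Phf19*, while *Jarid2*, *Bmi1*, *Pcgf2* and *Dnmt3a* separate by H3.1K27M.

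Within *ACVR1* WT, 18 of the 43 members stood in the order of the proliferation genes, highest in replicate 1 and lowest in replicate 3 (41.9%, against 28.3% of all genes tested). The promoters of the members were searched for the E2F motif, a choice made after these values were seen. E2F factors are known to drive genes of the S phase. The letters searched were TTTCCCGC, TTTCGCGC, TTTGCCGC and TTTGGCGC on both strands, in windows of 300 bases (250 before and 50 after each RefSeq start, GRCm38.p6). Of the 43 members, 36 had a promoter entry, with 52 promoters. The motif was in 4 of these 52 (7.69%), 1 promoter each of *Ezh2*, *Suz12*, *Dnmt1* and *Phf19*, where 744 of all 32851 promoters (2.26%) held it. The other 14 members in that order, among them *L3mbtl2*, *Rbbp4* and *Asxl1*, had no match or no entry. *Kdm6b*, *Cbx2*, *Pcgf1*, *Rybp*, *Nsd1*, *Asxl3* and *Yaf2* had no entry. A match describes the letters and shows no binding. The windows of 30 bases around each match are shown on the strand of the gene, with the motif in capitals. The motifs of *Suz12* and *Phf19* and the first of *Dnmt1* begin 219, 208 and 219 bases before the start site, and the motif of *Ezh2* and the second of *Dnmt1* begin at bases 4 and 34 after it.
*Ezh2*, chr6:47595009-47595038, minus strand: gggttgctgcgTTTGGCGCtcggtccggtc
*Suz12*, chr11:79992876-79992905, plus strand: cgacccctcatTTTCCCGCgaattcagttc
*Phf19*, chr2:34914166-34914195, minus strand: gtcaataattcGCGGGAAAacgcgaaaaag
*Dnmt1*, chr9:20952824-20952853, minus strand: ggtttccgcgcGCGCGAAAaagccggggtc
*Dnmt1*, chr9:20952574-20952603, minus strand: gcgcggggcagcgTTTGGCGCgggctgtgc

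The same comparison was made where both groups carried H3.1K27M. There 6 of the 43 members passed, 3 higher and 3 lower, where 20.3% of the 15672 genes tested did, 11.4% of them higher and 8.95% lower. The count of members is no higher than the background. *Ezh2*, *Dnmt1* and *L3mbtl2*, a subunit of the variant PRC1 that holds PCGF6, fell with *ACVR1* R206H, and *Pcgf5*, *Phf1* and *Aebp2* rose. *Ezh2* went from 77.4 to 80.8 CPM down to 64.4 to 66.6 CPM, a log2 fold change of -0.26 (SE 0.04, edgeR adjusted p = 0.00096). *Dnmt1* went from 166 to 176 CPM down to 136 to 146 CPM, a log2 fold change of -0.23 (SE 0.04, edgeR adjusted p = 0.0024). Of the 24 proliferation genes 22 fell and 0 rose in this comparison, with a median log2 fold change of -0.31, while 6 of 8 oligodendrocyte lineage markers fell and 0 rose, 5 of 7 neural progenitor markers rose and 1 fell, and 3 of 6 astrocyte markers rose and 1 fell. The part of these genes and cells in the members' changes was not tested.

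*L3mbtl2* had 40.1, 38.7 and 38.1 CPM where H3.1K27M came with *ACVR1* WT, against 34.7, 30.5 and 32.5 CPM with *ACVR1* R206H and H3.1K27M, a log2 fold change of -0.23 (SE 0.05, edgeR adjusted p = 0.01). Its exons share 17.2% of their bases with *Chadl* on the other strand. *Pcgf5* had 31.7, 30.9 and 34.2 CPM and 38.7, 40.8 and 43.1 CPM in the same groups, which did not overlap, a log2 fold change of 0.37 (SE 0.06, edgeR adjusted p = 0.00086). *Phf1* and *Aebp2* had log2 fold changes of 0.29 (edgeR adjusted p = 0.022) and 0.16 (edgeR adjusted p = 0.031), but *Phf1* lost the call without *ACVR1* WT with H3.1K27M replicate 2 or 3 or *ACVR1* R206H with H3.1K27M replicate 3. *Aebp2* lost it without replicate 1 or 2 of the former or replicate 1 or 3 of the latter group. *Jarid2*, *Bmi1*, *Pcgf2*, *Dnmt3a* and *Cbx6* did not pass, with log2 fold changes of -0.13, 0.01, 0.09, -0.003 and 0.07. The count of all genes was 2015 without *ACVR1* WT with H3.1K27M replicate 2 and 1915 without *ACVR1* R206H with H3.1K27M replicate 3, against 3185. When all 12 samples shared 1 estimate of the spread, 0 of the 43 members passed and 440 genes in all.

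Whether H3.1K27M acted differently under the 2 receptors was tested as an interaction over all 12 samples. With edgeR 0 of the 43 members passed, where 0.0712% of the 15445 genes did (0.0583% upward and 0.0129% downward), and 2 members had an unadjusted p under 0.05. DESeq2 called 0 members. The interaction terms of *Ezh2* and *Dnmt1* were -0.39 and -0.54 (edgeR adjusted p = 0.75 for both), with standard errors of 0.30 and 0.40. The passing of *Ezh2* and *Dnmt1* with *ACVR1* R206H and not with *ACVR1* WT was therefore not shown to be a difference between the receptors. Without *ACVR1* WT replicate 1, 14 members passed, 5 with a higher and 9 with a lower term, where 26.6% of all genes did, 13.6% higher and 13% lower. Among them *Dnmt1* had an interaction of -1.10 (edgeR adjusted p = 8.0e-05) and *Ezh2* of -0.79 (edgeR adjusted p = 0.00015). All 24 proliferation genes also passed there as lower (median -1.94) and 4 of 6 astrocyte markers as higher, and their part was not tested. *Jarid2*, *Bmi1*, *Pcgf2* and *Dnmt3a* had interaction terms of -0.15, 0.09, 0.27 and 0.03 over all 12 samples, and of these *Pcgf2* was among the 14.

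The remaining genes of these pathways were followed as separate lists. Of 35 other Polycomb and H3K27 genes 32 were tested, and with H3.1K27M 6 rose and 10 fell under *ACVR1* R206H (where 56.5% of all genes passed), and 1 rose and 3 fell under *ACVR1* WT (where 23% did). Their median log2 fold changes were -0.01 and -0.02. *Scml4*, a relative of *Scmh1*, had the smallest adjusted p in both comparisons. *Scml4* was at 0.619 to 2.08 CPM in the 6 samples without H3.1K27M and at 6.76 to 9.38 CPM in the 6 with it, log2 fold changes of 2.15 with *ACVR1* R206H (edgeR adjusted p = 4.1e-07) and 2.98 with *ACVR1* WT (edgeR adjusted p = 0.0026). *Lcorl* and *Usp7* fell in both. *Hdac2*, *Fbrsl1* and *Auts2* fell and *Bcor* and *Mbd6* rose with *ACVR1* R206H. Of the R206H comparisons, the one with H3.1K27M (20.3% of all genes passed) had 4 that rose, among them *Hdac1* (log2 fold change 0.16), and 1 that fell (*E2f6*, -0.14), while DESeq2 called 1. The one without H3.1K27M had 0 by edgeR and by DESeq2 (2 at an unadjusted p under 0.05). Leaving out *ACVR1* WT replicate 1, 13 of the 32 passed with H3.1K27M and *ACVR1* WT (52.6% of all genes), and 6 with *ACVR1* R206H alone (23.1% of all genes).

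Of 24 other genes of DNA methylation and H3K36 methylation 23 were tested, and with H3.1K27M 1 rose and 12 fell under *ACVR1* R206H (29.1% of all genes rose and 27.4% fell), with a median log2 fold change of -0.14. *Uhrf2* (-0.37), *Trim28* (-0.33), *Zbtb33* (-0.27), *Nsd2* (-0.32) and *Setd2* (-0.31) were among those that fell. Under *ACVR1* WT 1 rose (*Gadd45a*, 0.61) and 1 fell (*Zbtb33*, -0.34), with a median of -0.05, where 23% of all genes passed. *Uhrf1*, which brings DNMT1 to newly replicated DNA, had 135, 33.4 and 16.3 CPM in *ACVR1* WT replicates 1, 2 and 3, in the same order as *Dnmt1*. It fell with H3.1K27M under *ACVR1* R206H by 0.29 and with R206H where H3.1K27M was present by 0.36 (edgeR adjusted p = 0.0025 and 0.00062). With R206H and H3.1K27M 5 of the list fell and 1 rose (20.3% of all genes passed), and without H3.1K27M 0 passed edgeR's test or DESeq2's (0 at an unadjusted p under 0.05). With *ACVR1* WT replicate 1 left out, 10 of the 23 passed with H3.1K27M and *ACVR1* WT, where 52.6% of all genes did, and 5 with *ACVR1* R206H alone, where 23.1% did.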

How the data were processed

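RNAseq counts per gene from 12 samples were used. Per the methods of the study and the submitters' processing notes, STAR 2.6.0b-1 placed the read pairs on mm10 (GRCm38), and the authors took counts per Ensembl gene from HTSeq, without strand, in union mode, with a minimum alignment quality of 10 and without reads that match several places. The deposited values are these raw counts, neither normalized nor pooled. Reads shared by overlapping genes are lost under this mode: the exons of 18 of the 43 members share bases with another gene, for 17 of them on the other strand and for 3 (*Phf1*, *L3mbtl2*, *Rbbp4*) over more than 10% of the exon length. GENCODE M21, of the same build, gave symbols, positions and exon lengths, and held 54495 of the 54532 genes. *Ezhip* had no match in it.

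The members and lists were chosen with earlier results of these data known. Groups and replicate numbers came from the labels. Each comparison was fitted to its own 6 samples, and the interaction to all 12, by the quasi-likelihood method of edgeR 4.0.16 under R 4.3.3, with TMM scaling. Genes entered if their mean count, after median-of-ratios scaling, reached 10, with Benjamini-Hochberg adjustment over all of them and a threshold of 0.05. The fits were tested on simulated data. The log2 ratio of *Ezh2* to *Ezh1* was compared with a two-sided exact permutation test. Alternatives were DESeq2 1.42.0, edgeR with DESeq2's size factors, all genes without the filter, the replicate number as a block, all 12 samples in one fit, counts plus 1 for the ratio, and leaving out each replicate in turn. Values in every sample are given for the 12 members past the threshold with the smallest adjusted p, and for the member with the lowest p of a role in which none passed. Values per sample of other members were added after they were seen. Between 19315020 and 26456257 counts per sample lay behind these values. The part of depth and of the number of replicates in the precision was not tested.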

Additional observations from a re-analysis of the deposited data

How the results depend on the processing

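Every alternative was followed for the members past the threshold in each comparison, and for the members named by rule with H3.1K27M. Of these results for single members, 486 kept their direction and side of the threshold, 58 lost the threshold, 8 passed it newly and 9 turned in direction, all 9 with 1 sample left out. Over all 43 members, leaving out *ACVR1* WT replicate 1 brought 13, 16 and 14 newly past the threshold for R206H without H3.1K27M, H3.1K27M with *ACVR1* WT and the interaction, and turned the direction of 9, 5 and 5. Counts of calls moved by at most 1.5 times except as follows. For R206H without H3.1K27M, DESeq2 gave 26 genes and all 12 samples in one fit 11, against 0. For R206H with H3.1K27M, all 12 samples in one fit gave 0 members and 440 genes, against 6 and 3185. For H3.1K27M the same fit gave 15 members and 6335 genes with *ACVR1* WT, against 9 and 3533, and 16 members with *ACVR1* R206H, against 28. For the interaction, DESeq2 gave 96 genes and no filter 18, against 11.

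With 1 sample left out, members called ranged from 0 to 13 and genes from 0 to 3485 for R206H without H3.1K27M, and genes from 1915 to 2966 for R206H with H3.1K27M. For H3.1K27M with *ACVR1* WT they ranged from 4 to 25 members and from 1037 to 8115 genes, and for the interaction from 0 to 14 members and from 3 to 4112 genes. With H3.1K27M and *ACVR1* WT, the log2 fold change of *Ezh2* ranged from -0.39 to 0.23 (0.23 without *ACVR1* WT replicate 1), that of *Dnmt1* from -0.20 to 0.62 (-0.10 and -0.20 without *ACVR1* WT replicates 2 and 3), and that of *Nsd1* from -0.035 to 0.16 (-0.016 without *ACVR1* WT replicate 3, -0.0042 and -0.035 without *ACVR1* WT with H3.1K27M replicates 2 and 3). With *ACVR1* R206H that of *Nsd1* ranged from -0.097 to 0.069 (0.069 without *ACVR1* R206H replicate 1, 0.016 and 0.029 without replicates 1 and 3 of *ACVR1* R206H with H3.1K27M). The cause was not tested.

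Samples with the same replicate number did not meet the rule used for pairing in any comparison (all 3 correlations of deviations over 0.1), so the numbers were not taken as pairing. For R206H without H3.1K27M the correlations were 0.31, 0.42 and -0.14 for replicates 1, 2 and 3, so the first 2 did deviate together there. In the other comparisons the highest was 0.091. With the replicate number as a block, H3.1K27M with *ACVR1* WT gave 6 members and 2023 genes, *Ring1*, *Kdm6a* and *Cbx6* losing the threshold, and the interaction gave 2 genes. Under the block the numbers of members called in the other comparisons were 0, 6, 28 and 0, the same as without it, and the exact p of the ratio was 0.25 or 0.5.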

Other observations

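Textbook targets of Polycomb were looked at as a separate list of 24 genes, of which 11 to 14 were expressed enough to be tested. With H3.1K27M, 5 rose and 8 fell under *ACVR1* R206H (13 of 14 tested, where 56.5% of all genes passed), and 2 rose and 3 fell under *ACVR1* WT (of 13 tested, where 23% of all genes passed). *Pax7* and *Lhx2*, homeobox genes of the neural tube and forebrain, rose in both. *Lhx2* was at 0.922 to 2.18 CPM in the 6 samples without H3.1K27M and at 5.08 to 6.46 CPM in the 6 with it, with log2 fold changes of 1.81 under *ACVR1* R206H (edgeR's quasi-likelihood test, adjusted p = 7.1e-06) and 1.98 under *ACVR1* WT (adjusted p = 0.0057). *Pax7* was at 0.206 to 0.364 CPM and at 1.12 to 1.68 CPM, with log2 fold changes of 2.21 and 2.28. *Pax6*, *Gata3* and *Neurog2* fell in both. *Gata3* was at 3.98 to 6.03 CPM without and 1.15 to 2.23 CPM with H3.1K27M.

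*Ccnd2*, which encodes cyclin D2, was at 677, 142 and 85.8 CPM in *ACVR1* WT replicates 1, 2 and 3, at 440 to 676 CPM with *ACVR1* R206H, at 1591 to 1745 CPM with *ACVR1* WT and H3.1K27M, and at 2140 to 2337 CPM with *ACVR1* R206H and H3.1K27M. It rose with H3.1K27M under *ACVR1* R206H (log2 fold change 2.02, edgeR adjusted p = 5.4e-08), while 18 of the 24 proliferation genes fell there. R206H with H3.1K27M raised 4 and lowered 2 of 11 tested targets (20.3% of all genes passed), and R206H without it changed 0 of 13 by edgeR or DESeq2 (0 at an unadjusted p under 0.05). With that first *ACVR1* WT sample left out, 10 of 13 targets passed with H3.1K27M and *ACVR1* WT (52.6% of all genes), and 5 of 13 with *ACVR1* R206H alone (23.1% of all genes).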
